A study of Mus musculus with 16 samples.

Results

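Triglyceride synthesis enzymes build the glycerol backbone of stored fat and add fatty acids to it. The 10 genes described here are Gpd1, Gpam, Gpat3, Gpat4, Agpat2, Lpin1, Lpin2, Dgat1, Dgat2 and Mogat1. Their probe sets were found by annotated gene symbol, 1 for each gene, so they make up 10 of 22206 probe sets and 10 of the 19505 gene symbols on the array. All 10 passed the filter on dim probe sets in both tissues. RNA came from 14-week-old male C57BL/6J mice in 4 groups of 4 libraries. Liver F1 and eWAT F1 came from sons of an obese father and a control mother, and Liver CT and eWAT CT from sons of control parents. eWAT is the labels' name for a white adipose depot. The obese fathers had received a diet with 45% lipids for 12 weeks from the age of 8 weeks, the control fathers chow, and the sons of both differ in the labels only by the father. No diet for the sons, no father and no litter is named, so brothers may be counted as separate samples and the p-values measure the spread between these 4 libraries a group.

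The pathway starts from glycerol 3-phosphate, which Gpd1 makes in the cytosol from a glycolytic intermediate. Glycerol-3-phosphate acyltransferases (Gpam at the mitochondrion, Gpat3 and Gpat4 at the endoplasmic reticulum) add the first fatty acid, and Agpat2 adds the next to give phosphatidate. The lipins, Lpin1 and Lpin2, remove the phosphate to give diacylglycerol. Mogat1 makes diacylglycerol by another route, from monoacylglycerol. Dgat1 and Dgat2 add the last fatty acid. In white fat the product is stored in the lipid droplet of the adipocyte. In liver it is stored or exported in very low density lipoprotein.

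The values are log2 signals of the array, and a difference of 1 is a doubling. The tissue labels held for the defining markers. Adipocyte markers (8 genes, Adipoq and Plin1 among them) had medians of 17.98 to 18.24 in eWAT F1 and 17.78 to 18.05 in eWAT CT, against 4.73 to 5.26 in Liver F1 and 5.09 to 5.61 in Liver CT. Hepatocyte markers (8 genes) had medians of 19.87 to 19.93 in the 8 liver libraries. Several libraries carried transcripts of another organ. Liver F1 4 had a median of 12.13 over 7 exocrine pancreas genes, against 4.36 to 5.43 in the other liver libraries. Liver F1 1 and 2 had medians of 4.96 and 4.83 over 6 skeletal muscle genes, against 3.79 to 3.99 in the others. All of these muscle medians lay below the liver library medians (5.21 to 5.24). The same genes had medians of 5.66 and 5.64 in eWAT CT 1 and 4, against 3.54 to 4.28 in the other eWAT libraries. eWAT CT 1 and 4 were not left out together. eWAT F1 1 carried seminal vesicle transcripts (median 11.2 over 8 genes, chosen after the values were seen), and eWAT CT 4 testis germ cell transcripts (median 9.43 over 7 genes, chosen likewise). Hepatocyte markers in eWAT had medians of 12.74, 15.32, 12.28 and 16.14 in F1 libraries 1 to 4, against 8.93, 7.80, 14.72 and 14.75 in CT libraries 1 to 4. Results are given below with and without these libraries where that moves a direction or a value.

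The largest contrasts of the 10 genes lay between the tissues. The liver and eWAT tables appeared to have been normalized separately (library medians 5.21 to 5.24 and 6.34 to 6.56), so the tissue differences are descriptions with no test, and each is also given after joint quantile normalization of the 16 libraries. Of the 10 genes, 4 were brighter in liver than in eWAT on the deposited scale and 3 after joint normalization, in F1 and CT alike. In bulk tissue, fewer cells of a type and less RNA per cell cannot be told apart.

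Gpat3, Lpin2, Mogat1 and Dgat1 each differed more than 10-fold between liver and eWAT in both F1 and CT offspring on the deposited scale. Upstream sequences are shown for Gpat3, Lpin2 and Mogat1. No upstream window was available for Dgat1. Each is 250 bases from the gene's strand in build GRCm38.p6, credited to RefSeq, in lower case with motif matches in capitals (GGGCGG, a GC box, and CACGTG, an E-box). Gpat3 is at chr5:100845979-100846228 (plus strand), the first of 3 Lpin2 windows at chr17:71183282-71183531 (plus strand) and Mogat1 at chr1:78510810-78511059 (plus strand).
Gpat3: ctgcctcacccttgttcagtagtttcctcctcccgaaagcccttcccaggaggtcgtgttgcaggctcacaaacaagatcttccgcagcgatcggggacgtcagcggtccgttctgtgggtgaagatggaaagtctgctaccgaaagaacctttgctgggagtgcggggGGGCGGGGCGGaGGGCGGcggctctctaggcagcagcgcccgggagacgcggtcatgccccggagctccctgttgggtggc
Lpin2: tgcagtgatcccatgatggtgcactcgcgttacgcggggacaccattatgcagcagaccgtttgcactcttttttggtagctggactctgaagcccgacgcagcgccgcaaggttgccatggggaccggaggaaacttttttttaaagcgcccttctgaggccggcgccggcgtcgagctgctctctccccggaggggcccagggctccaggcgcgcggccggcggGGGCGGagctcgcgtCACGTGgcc
Mogat1: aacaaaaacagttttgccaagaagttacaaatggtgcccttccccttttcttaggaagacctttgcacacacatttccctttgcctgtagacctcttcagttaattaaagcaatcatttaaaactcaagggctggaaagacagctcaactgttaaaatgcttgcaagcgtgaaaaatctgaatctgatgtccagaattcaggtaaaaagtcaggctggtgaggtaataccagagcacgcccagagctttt
The Gpat3 window was 64.0% G or C and held 3 GC boxes, 2 of which share 1 base. This Lpin2 window was 65.2% G or C and held 1 GC box and 1 E-box, the E-box ending 4 bases before the start. The Mogat1 window was 41.2% G or C, against a median of 52.4% over all 32851 windows, and held none of the motifs searched. The motifs were searched on both strands. GGGCGG was found in 32.7% of all windows, CACGTG in 6.02%, CCAAT in 33.8%, TATAAA in 12.4%, TTGCGCAA in 0.164% and a DR1 motif (AGGTCA, any base, AGGTCA) in 0.0335%. A match describes letters and is not a binding site.

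At the entry step, Gpd1 was brighter in eWAT. Its liver minus eWAT difference was -1.43 in F1 and -0.65 in CT (-2.03 and -1.26 after joint normalization). Among the enzymes that add the first fatty acid, Gpat3 had the widest gap, the widest of all 10 genes on the deposited scale but narrower than that of Lpin2 after joint normalization. Gpat3, the glycerol-3-phosphate acyltransferase of adipocytes, averaged 6.28 ± 0.15 in Liver F1 and 13.86 ± 0.33 in eWAT F1, and 6.16 ± 0.30 in Liver CT and 13.29 ± 0.17 in eWAT CT (SD, n = 4 each). These are differences of -7.59 in F1 and -7.12 in CT, or 192-fold and 139-fold lower in liver (-6.73 and -6.19 after joint normalization). The mitochondrial enzyme Gpam lay the other way, 0.67 higher in liver in F1 and 1.22 in CT (0.36 and 0.78 after joint normalization). Gpat4 had overlapping liver and eWAT libraries in both F1 and CT offspring, with differences of 0.19 in F1 and 0.49 in CT (0.66 and 1.07 after joint normalization).

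The lipins split. Lpin2, known as the main lipin of liver, averaged 15.62 ± 0.15 in Liver F1 and 9.35 ± 0.39 in eWAT F1, and 15.57 ± 0.39 in Liver CT and 9.09 ± 0.47 in eWAT CT (SD, n = 4 each), which is 76.9-fold and 89.1-fold higher in liver, or log2 differences of 6.27 and 6.48 (6.84 and 7.05 after joint normalization). Lpin1, the lipin whose loss gives the fatty liver dystrophy mouse, was bright in both tissues. Its liver minus eWAT difference was 0.67 in F1 and 0.53 in CT as deposited, but -0.18 and -0.16 after joint normalization, so its direction between tissues depends on the scaling. Agpat2, whose loss in humans causes generalized lipodystrophy, had liver minus eWAT differences of -1.45 in F1 and -0.93 in CT (-1.68 and -1.21 after joint normalization).

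Both enzymes of the last step were brighter in eWAT, and so was Mogat1. Dgat1, which also handles re-esterified fatty acids, averaged 6.65 ± 0.35 in Liver F1 and 11.27 ± 0.39 in eWAT F1, and 6.77 ± 0.33 in Liver CT and 10.62 ± 0.33 in eWAT CT (SD, n = 4 each). That is 24.6-fold lower in liver in F1 and 14.4-fold lower in CT. Mogat1 was 26.1-fold lower in liver in F1 and 13.0-fold lower in CT. After joint normalization the differences were smaller, -3.46 in F1 and -2.62 in CT for Dgat1 and -3.47 and -2.40 for Mogat1. Dgat2, without which mice make almost no stored fat, had differences of -2.17 in F1 and -2.04 in CT (-2.85 and -2.81 after joint normalization). Its eWAT values of 18.37 to 19.08 lay close to the array's highest value (19.93). Whether differences shrink there was not tested.

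**Figure D1:**
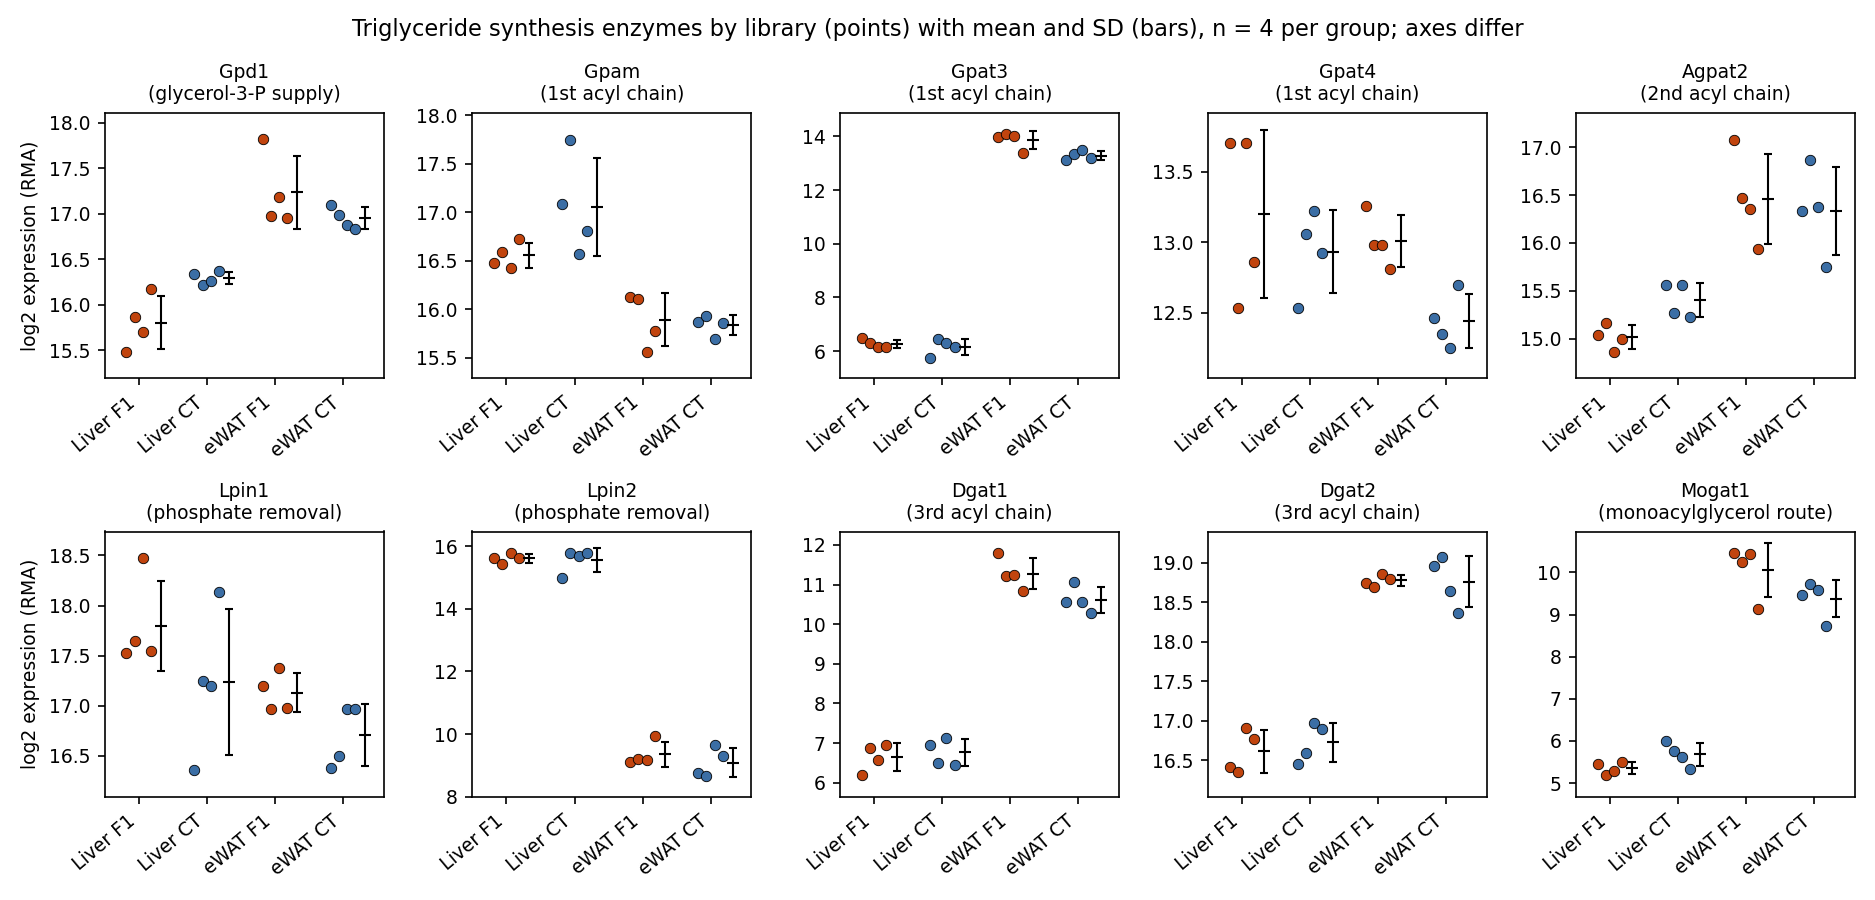
Log2 signal of each of the 10 enzymes in every library, by group, with the mean of each group. Gpat3, Dgat1 and Mogat1 sit far higher in eWAT than in liver, and Lpin2 sits far higher in liver, while F1 and CT libraries of a tissue lie close together.

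**Figure D2:**
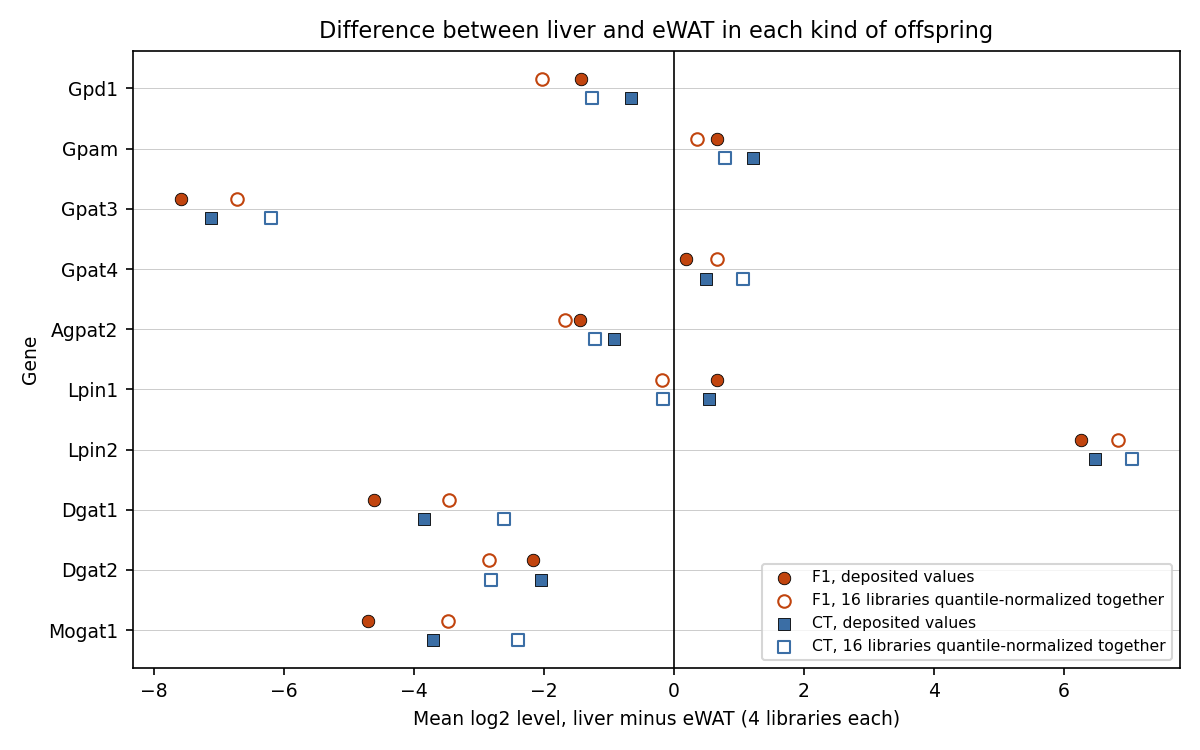
Liver minus eWAT difference in log2 signal for each enzyme in F1 and in CT, as deposited and after joint quantile normalization. Lpin1 is the enzyme whose difference turns sign with the scaling, and Gpat3 (-7.59 in F1) and Lpin2 (6.27 in F1) have the largest differences.

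In liver, the question was whether the pathway differed in sons of obese fathers. None of the 10 enzymes passed the test (limma, adjusted p under 0.05), beside 0.156% of the 14760 genes tested. At an unadjusted p under 0.05 there were 2 of 10, both lower in F1, beside 9.13% of all genes (4.46% higher and 4.66% lower). The groups did not overlap for the same 2 genes, Gpd1 and Agpat2, beside 5.37% of all genes with no overlap and 2.68% with F1 wholly below CT. The means of 6 enzymes were lower in F1 and those of 4 higher (49.5% of all genes were higher), and the median difference was -0.11 on the log2 scale, against 0.0 over all genes. At an unadjusted p under 0.05 there was 1 enzyme without the pancreas library (Gpd1) and 1 without both muscle libraries (Agpat2), again lower in F1.

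Gpd1, which makes glycerol 3-phosphate, had log2 signals of 15.48, 15.87, 15.70 and 16.17 in Liver F1, against 16.34, 16.22, 16.26 and 16.37 in Liver CT. Every F1 library lay below every CT library, and the F1 libraries were the more scattered. The difference was -0.49 ± 0.17 (SE), with a 95% interval of -0.87 to -0.11 and an adjusted p of 0.428. It was -0.61 without the F1 library that carried pancreas transcripts, and -0.36 without the 2 that carried muscle transcripts.

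Gpam, the mitochondrial acyltransferase that insulin and SREBP-1c induce in liver, had signals of 16.48, 16.59, 16.43 and 16.72 in Liver F1, against 17.09, 17.75, 16.57 and 16.81 in Liver CT. F1 libraries 1 and 3 lay below the CT range and the other 2 at its low end, and CT 2 (17.75) stood well above the rest. The difference was -0.50 ± 0.24 (SE, interval -1.03 to 0.03, adjusted p = 0.582), and -0.27 without CT 2. Liver CT 2 also had the highest macrophage marker median of the liver libraries (10.76, against 9.70 to 10.29). It was the highest liver library for Marco, Adgre1, Csf1r and Lyz2 but the lowest for Clec4f (9.40) and Cd163 (8.00). The part of these transcripts in the result was not tested. The endoplasmic reticulum enzymes had small differences with wide intervals, 0.11 (-0.29 to 0.51) for Gpat3 and 0.27 (-0.37 to 0.90) for Gpat4. Gpat4 in Liver F1 split into a pair near 13.70 and a pair at 12.53 and 12.86.

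Agpat2, which makes phosphatidate, had signals of 15.04, 15.16, 14.86 and 15.00 in Liver F1, against 15.56, 15.27, 15.56 and 15.23 in Liver CT. All F1 libraries lay below all CT libraries. The difference was -0.39 ± 0.15 (SE, interval -0.73 to -0.05, adjusted p = 0.488).

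Lpin1 had the largest positive difference in liver. Its signals were 17.53, 17.65, 18.47 and 17.55 in Liver F1, against 16.36, 17.25, 17.20 and 18.14 in Liver CT. CT 1, 2 and 3 lay below every F1 library and CT 4 above all of them but F1 3, and the difference of 0.56 ± 0.35 (SE) had an interval of -0.23 to 1.35 and an adjusted p of 0.69. It was 0.27 without CT 1, 0.86 without CT 4 and 0.77 without F1 1 and 2. Lpin1 also encodes a coactivator that fasting induces in mouse liver. Lpin2 differed by 0.05 (-0.41 to 0.51).

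The differences at the last step in liver were near 0, with intervals to both sides. Dgat2 had signals of 16.41, 16.35, 16.91 and 16.77 in Liver F1, against 16.45, 16.59, 16.97 and 16.89 in Liver CT, a difference of -0.12 with an interval of -0.54 to 0.31. The 2 groups spanned nearly the same range. Dgat1 differed by -0.11 (-0.61 to 0.39). Mogat1 had signals of 5.45, 5.19, 5.28 and 5.50 in Liver F1, against 5.99, 5.76, 5.62 and 5.34 in Liver CT, and 1 CT library lay inside the F1 range. Its difference was -0.32 ± 0.17 (SE, interval -0.71 to 0.06, adjusted p = 0.633), at a signal near the middle of the array's values in liver.

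In eWAT the means of all 10 enzymes were higher in F1, but none passed the test (limma, adjusted p under 0.05), as was the case for all 14766 genes tested, 0.0% of which were called. At an unadjusted p under 0.05 there were 3 of 10 enzymes, all higher in F1 (Gpat3, Gpat4 and Dgat1), beside 9.99% of all genes (4.96% higher and 5.03% lower). The median difference of the 10 was 0.36 on the log2 scale, against -0.0025 over all genes, and 49.4% of all genes had a higher mean in F1. Gpat4 was the enzyme whose groups did not overlap, beside 5.92% of all genes with no overlap (2.91% with F1 wholly above CT and 3.01% wholly below). Of the libraries, eWAT F1 1, which carried seminal vesicle transcripts, was the highest for 6 of the 10 enzymes, and eWAT CT 4, which carried testis transcripts, the lowest for 5. Without those 2 libraries 7 of 10 means were higher in F1 with a median of 0.36, but 1 enzyme (Gpat4) was at an unadjusted p under 0.05. Agpat2, Dgat2 and Gpam then had lower means in F1. There were 2 enzymes at that level without eWAT CT 1 and 2, and 4 with the hepatocyte marker median as a covariate.

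Gpat4, the acyltransferase that mouse subdermal fat needs, had signals of 13.26, 12.98, 12.98 and 12.81 in eWAT F1, against 12.46, 12.35, 12.25 and 12.70 in eWAT CT. The lowest F1 value exceeded the highest CT value. The difference was 0.57 ± 0.17 (SE), or 1.48-fold higher, with an interval of 0.19 to 0.94, an unadjusted p of 0.00744 and an adjusted p of 0.389. It was 0.57 again without eWAT F1 1 and eWAT CT 4 and 0.53 without eWAT CT 1 and 2.

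Gpat3 had signals of 13.96, 14.10, 14.01 and 13.38 in eWAT F1, against 13.10, 13.33, 13.50 and 13.21 in eWAT CT. F1 libraries 1, 2 and 3 lay above all CT libraries and F1 4 lay among them. The difference was 0.58 ± 0.20 (SE, interval 0.14 to 1.02, adjusted p = 0.412), or 1.49-fold higher. Gpam, bright in both groups, differed by 0.05 (-0.34 to 0.44).

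Gpd1 and Agpat2 depended on which libraries were used. Gpd1 had signals of 17.82, 16.98, 17.19 and 16.95 in eWAT F1, against 17.10, 16.99, 16.88 and 16.83 in eWAT CT, and F1 1 alone lay far above the others. Its difference was 0.29 ± 0.21 (SE, interval -0.19 to 0.76) and 0.05 without eWAT F1 1 and eWAT CT 4. Agpat2 differed by 0.13 (-0.53 to 0.79), by -0.27 without those 2 libraries, and by 0.40 both without eWAT CT 1 and 2 and with the hepatocyte covariate.

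Lpin1 had signals of 17.20, 16.97, 17.38 and 16.98 in eWAT F1, against 16.38, 16.50, 16.97 and 16.97 in eWAT CT. The lowest F1 library equalled the highest CT libraries at 16.97. The difference was 0.43 ± 0.19 (SE, interval -0.01 to 0.87, adjusted p = 0.511), and it was 0.16 without eWAT CT 1 and 2. Lpin2, the liver lipin, had signals of 9.10, 9.20, 9.17 and 9.93 in eWAT F1, against 8.74, 8.66, 9.64 and 9.31 in eWAT CT. Its highest library, F1 4, was also the one with the highest hepatocyte marker median (16.14), and its lowest, CT 2, the one with the lowest (7.80). The Lpin2 difference was 0.26 (-0.36 to 0.88), and it was -0.07 with the hepatocyte marker median as a covariate and -0.13 without eWAT CT 1 and 2.

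At the last step Dgat1 and Dgat2 had different estimates, and the 2 were not tested against each other. Dgat1 had signals of 11.79, 11.22, 11.24 and 10.84 in eWAT F1, against 10.56, 11.07, 10.55 and 10.28 in eWAT CT. All F1 libraries but 1 lay above every CT library. The difference was 0.66 ± 0.24 (SE, interval 0.11 to 1.20, adjusted p = 0.42), or 1.58-fold higher, and it was 0.37 without eWAT F1 1 and eWAT CT 4 and 0.88 with the hepatocyte covariate. Dgat2 had signals of 18.75, 18.70, 18.86 and 18.80 in eWAT F1, against 18.96, 19.08, 18.64 and 18.37 in eWAT CT. The F1 libraries sat inside the CT range, and the difference of 0.02 had an interval of -0.40 to 0.43. Mogat1 had signals of 10.45, 10.24, 10.43 and 9.12 in eWAT F1, against 9.46, 9.73, 9.59 and 8.73 in eWAT CT. The lowest library of each group was its library 4. The difference was 0.68 ± 0.34 (SE, interval -0.07 to 1.44, adjusted p = 0.533), and it was 0.34 without eWAT F1 1 and eWAT CT 4, 0.90 without eWAT CT 1 and 2, and 0.97 with the hepatocyte covariate.

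Markers of other cells in eWAT are given beside these values. Hepatocyte markers had higher means in F1 for 8 of 8 genes (median 1.99). Skeletal muscle genes had lower means for 5 of 5 tested (median -0.80), with the highest library medians in eWAT CT 1 and 4 (5.66 and 5.64). Macrophage genes had lower means for 5 of 6 tested (median -0.37) and adipocyte markers higher means for 7 of 8 (median 0.10). Lep, the adipocyte marker with a lower mean, had the largest difference of its list, -0.63 (limma, unadjusted p = 0.0395, adjusted p = 0.471). The 7 with higher means differed by 0.05 to 0.28. The part of these other cells in the enzymes' differences was not tested beyond the covariate and the left-out libraries above. Both erythroid genes tested had higher means in F1, Alas2 by 0.64 (adjusted p = 0.412) and Slc4a1 by 0.75 with no overlap (adjusted p = 0.397). Of the brown fat markers, Ucp1 was at 2.01 to 2.35 in eWAT F1 and 2.14 to 2.74 in eWAT CT. Cidea differed by 1.41 with no overlap, Elovl3 by 0.89 and Cox7a1 by -0.18. Elovl3 is also bright in liver (14.91 to 18.19). In eWAT it was highest in F1 4 (9.92) and lowest in CT 2 (3.30), the libraries with the highest and lowest hepatocyte marker medians.

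**Figure D3:**
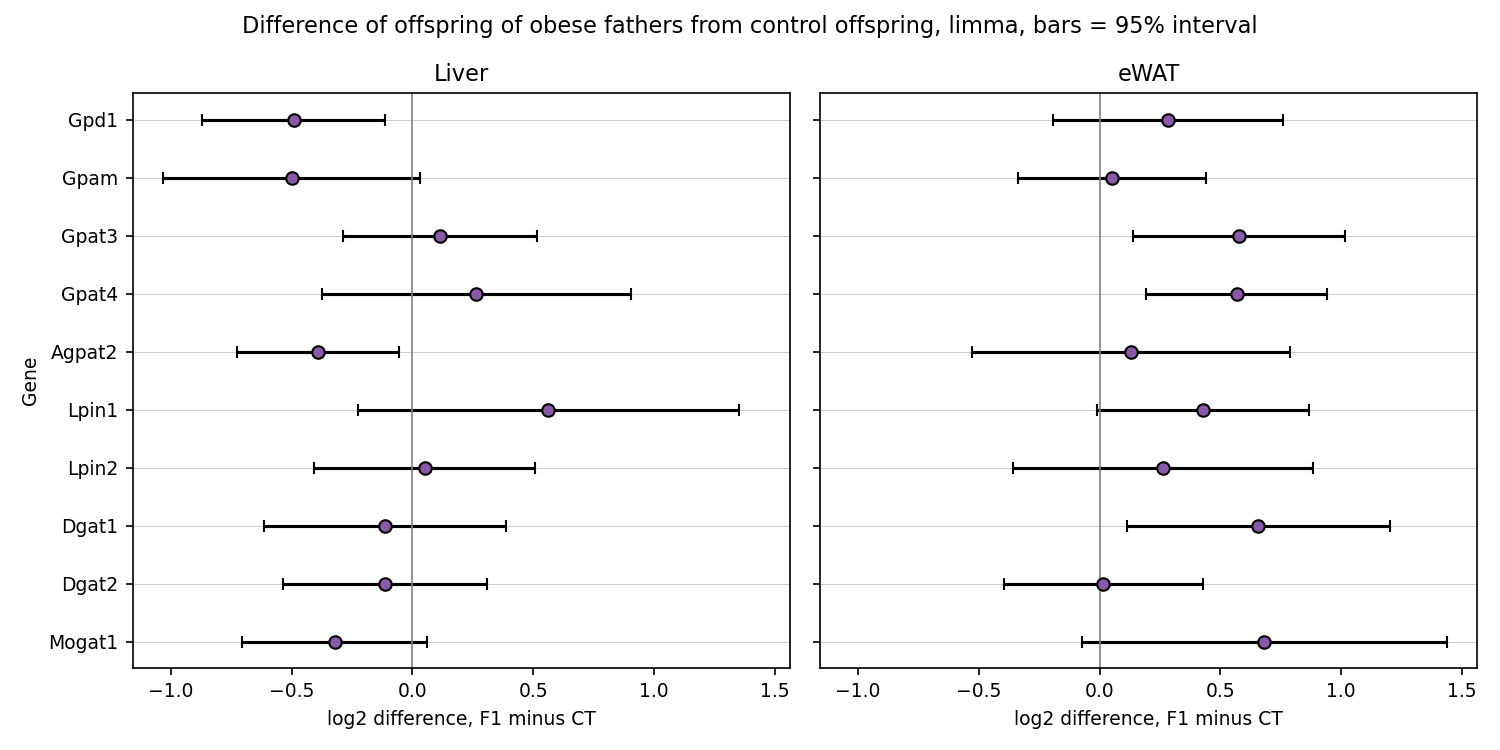
F1 minus CT difference in log2 signal for each enzyme in liver and in eWAT, with 95% intervals from limma. In eWAT all 10 points lie above 0 and in liver 4 of 10 do, and none passed the adjusted threshold.

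**Figure D4:**
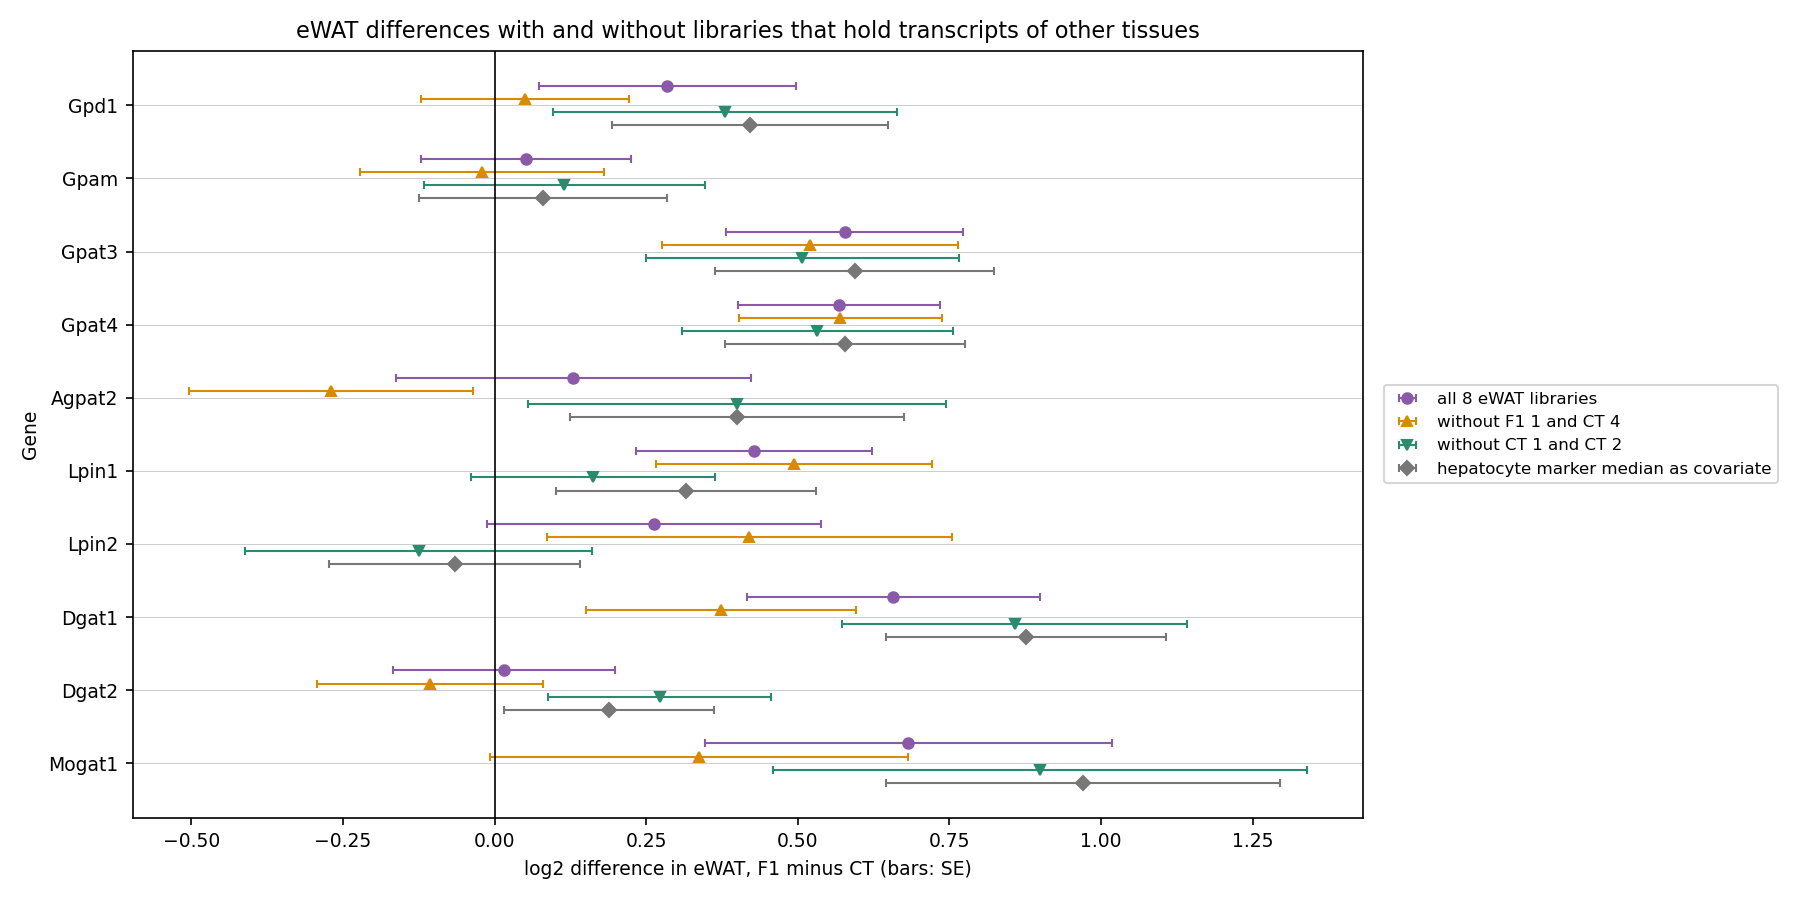
F1 minus CT difference in eWAT for each enzyme over all libraries and under the settings that leave out or account for libraries with transcripts of other tissues, with bars of 1 SE. Gpat4 stays near 0.57, Dgat1 ranges down to 0.37, and Agpat2, Lpin2, Gpam and Dgat2 cross 0 in at least 1 setting.

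**Figure D5:**
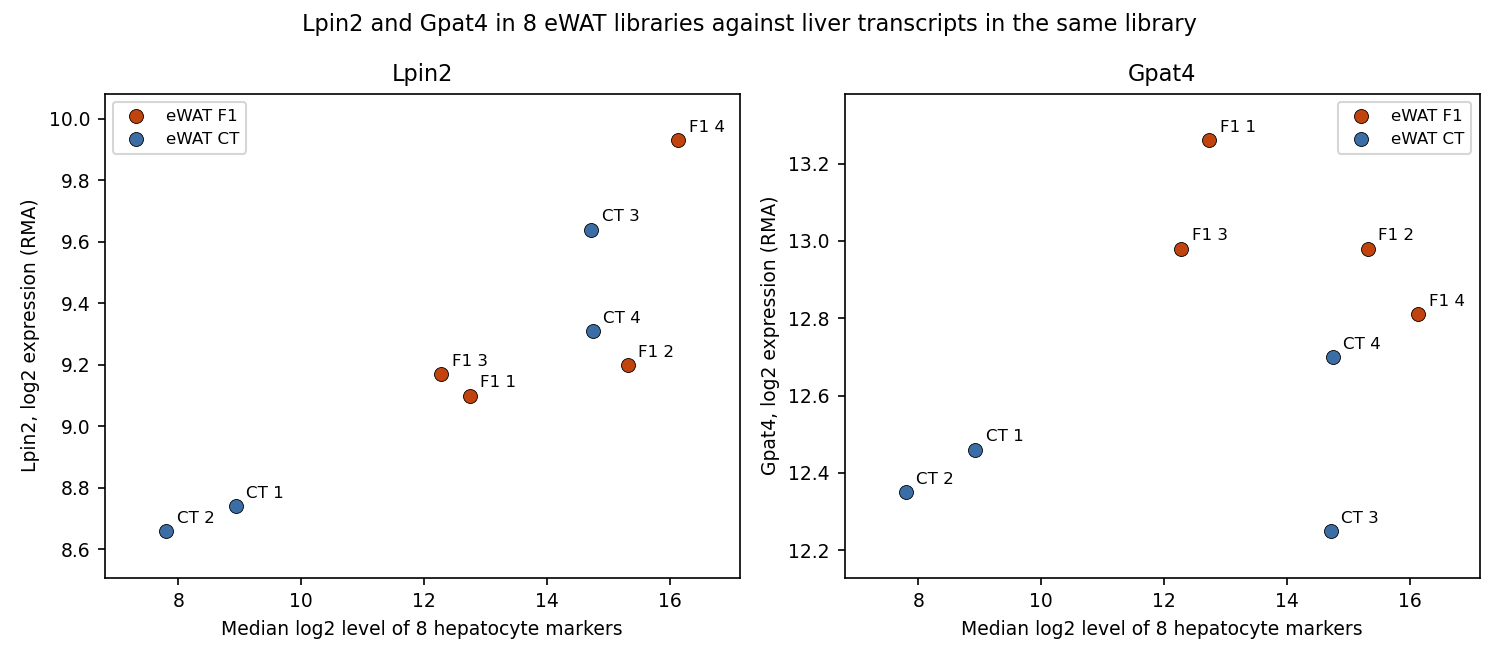
Lpin2 and Gpat4 signals, in separate panels, in each eWAT library against that library's median over the 8 hepatocyte markers, all in log2 units. For Lpin2, F1 4 is highest on both axes (9.93 and 16.14) and CT 2 lowest on both (8.66 and 7.80). Between them the order differs, with F1 2 at 9.20 and 15.32 and CT 3 at 9.64 and 14.72. For Gpat4, the highest library is F1 1 (13.26 and 12.74) and the lowest CT 3 (12.25 and 14.72).

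The difference between the F1 effects of the 2 tissues was tested as an interaction over the 16 libraries. None of the 10 enzymes passed (limma), beside 0.0743% of 13466 genes. The estimate, the liver effect minus the eWAT effect, was below 0 for 9 of 10 enzymes, beside 50.7% of all genes, with a median of -0.49. At an unadjusted p under 0.05 there were 3, all below 0, beside 9.91% of all genes (4.92% above 0 and 4.98% below). That count was 0 without Liver F1 1 and 2, 1 without eWAT F1 1 and eWAT CT 4, 3 without Liver F1 4 and 4 without eWAT CT 1 and 2. Over all libraries the 3 were Gpd1 at -0.78 ± 0.27 (SE, adjusted p = 0.37), Mogat1 at -1.01 ± 0.39 (adjusted p = 0.416) and Dgat1 at -0.77 ± 0.34 (adjusted p = 0.465). All 3 had lower means in F1 in liver and higher ones in eWAT. Lpin1 had a difference of 0.56 in liver and 0.43 in eWAT, and its interaction was 0.14.

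Other genes of the pathway were followed as 5 lists, in which no gene passed the adjusted threshold in either tissue (limma). In eWAT, 10 of 13 tested genes for other glycerolipid enzymes had higher means in F1, with 1 at an unadjusted p under 0.05. That was Gpd1l, a relative of Gpd1, at 0.44 ± 0.19 (SE, adjusted p = 0.489). Of genes that supply fatty acyl-CoA and glycerol, 11 of 13 had higher means (median 0.31), with 1 higher and 1 lower at that level. The 11 include Slc27a2 (2.57), Fabp1 (1.73), Aqp9 (1.22) and Slc27a5 (0.91), which are bright in liver and were highest in eWAT F1 4 and lowest in eWAT CT 1 or 2, the libraries with the highest and the 2 lowest hepatocyte marker medians. The fatty acid transporter Slc27a1 differed by 0.46 with no overlap of groups (adjusted p = 0.427), Acsl4, an acyl-CoA synthetase, by -0.42 and the glycerol channel Aqp7 by 0.31, also without overlap. Of 16 regulators, 11 had higher means, 4 of them at an unadjusted p under 0.05, and 4 had lower means. The largest of those under 0.05 were Ppara at 0.97 (adjusted p = 0.412) and Ppargc1a at 0.75 (adjusted p = 0.493). The others were the liver X receptor gene Nr1h3 at 0.48 ± 0.16 (adjusted p = 0.402) and the seipin gene Bscl2 at 0.55 (adjusted p = 0.42). Ppara is also bright in liver (14.32 to 15.44). Its lowest eWAT libraries were CT 2 (6.85) and CT 1 (7.29), the 2 with the lowest hepatocyte marker medians, and its highest was F1 1 (8.96). Over all eWAT genes, 4.96% were higher and 5.03% lower at that level, and 2.91% were higher with no overlap.

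Among 16 eWAT genes of lipid storage and triglyceride hydrolysis, 13 had higher means in F1 and 3 were higher at an unadjusted p under 0.05 (4.96% of all genes were). The 13 include Apob (1.88), Cideb (1.21) and Mttp (0.72), genes bright in liver that were also highest in eWAT F1 4 and lowest in eWAT CT 2. Cidea, a droplet fusion gene, had signals of 4.90 to 7.60 in eWAT F1 and 4.08 to 4.73 in eWAT CT, a difference of 1.41 ± 0.53 (SE, adjusted p = 0.432), and its highest library was eWAT F1 1. Fitm2, which helps lipid droplets bud from the endoplasmic reticulum, had signals of 12.99 to 13.21 in eWAT F1 and 12.30 to 12.44 in eWAT CT. The groups were well apart, with a difference of 0.70 ± 0.14 (SE, adjusted p = 0.362). Plin5, a droplet coat gene of oxidative tissue, differed by 0.83 (adjusted p = 0.362) at a dim signal. It is brighter in liver (8.77 to 10.32). Its lowest eWAT libraries were CT 1 (4.32) and CT 2 (4.35), those with the lowest hepatocyte marker medians, and its highest was F1 2 (5.65). The phospholipid branch, which draws on the same phosphatidate and diacylglycerol, split 9 higher and 7 lower (median 0.01), with no gene at an unadjusted p under 0.05.

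In liver, the storage and hydrolysis list had 13 of 17 tested genes with lower means in F1, 3 with higher ones and Apob equal at the top of the scale in all 8 libraries (median -0.33). Unadjusted p-values under 0.05 were found for 3 genes lower and 2 higher in F1, beside 4.66% and 4.46% of all genes. Plin4, which coats lipid droplets, had a difference of -1.03 ± 0.27 (SE, adjusted p = 0.256), and Pnpla2, the lipase of the first step of triglyceride hydrolysis, one of 0.66 ± 0.18 (adjusted p = 0.267). Neither had overlapping groups. Other glycerolipid enzymes had 6 higher and 8 lower means, and Agpat3, a relative of Agpat2, differed by -0.26 with no overlap (adjusted p = 0.641). Genes of acyl-CoA and glycerol supply had 7 of each, with 1 higher and 2 lower at an unadjusted p under 0.05. These were Acsl4 at 0.57 (adjusted p = 0.546), Fabp1 at -0.44 (adjusted p = 0.516) and Aqp7 at -0.39 (adjusted p = 0.467). Aqp7 had no overlap, at a dim signal (4.36 to 5.06). Acsl4 and Aqp7 had the opposite direction in eWAT (interaction in limma, adjusted p = 0.306 and 0.227). Regulators had 6 higher and 10 lower, with 1 higher and 1 lower at an unadjusted p under 0.05. These were Cebpa at 0.36 (adjusted p = 0.483) and Insig2, which holds back SREBP processing, at -0.96 (adjusted p = 0.341). Neither had overlapping groups, beside 2.68% of all genes in each direction. The phospholipid branch had 6 higher and 9 lower, with 1 higher and 1 lower at an unadjusted p under 0.05. The higher one, the ethanolamine kinase gene Etnk1, had signals of 11.51 to 11.95 in Liver F1 and 10.64 to 11.11 in Liver CT. Its difference was 0.80 ± 0.17 (SE, adjusted p = 0.147). The lower one, Selenoi, differed by -0.63 ± 0.18 (SE, adjusted p = 0.324), also without overlap.

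The genes whose signal followed Dgat2 most closely over the 8 libraries of a tissue were Ska2, Fam32a, Hhipl1 and Nxn in liver (Pearson r of 0.94, 0.92, 0.91 and 0.91) and Ptpa, Ssr1, Ano2 and Fndc10 in eWAT (0.98, 0.97, 0.96 and 0.96). These are the highest of all genes compared and are given as a description. None of them is an enzyme of the pathway. The other 9 enzymes had correlations with Dgat2 of -0.20 to 0.60 in liver and -0.53 to 0.55 in eWAT, over libraries that share 1 normalization.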

How the data were processed

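Total RNA from 16 liver and eWAT samples (150 ng each) was hybridized to Affymetrix mouse arrays. The labels do not say whether both tissues came from the same mice. The deposited values are on a log2 scale and per the submitters' processing notes, were made by the authors with RMA and Transcriptome Analysis Console 4.0. The platform annotation gave 1 symbol to 19572 of 22206 probe sets. For the 55 symbols with several probe sets the brightest on average was used.

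F1 minus CT was fitted separately for each tissue (8 libraries) in R 4.3.3 with limma 3.58.1, on genes with a mean above the 25th percentile, with Benjamini-Hochberg adjustment over all of them and a threshold of 0.05. The interaction used 16 libraries. The fits were tested on simulated data. Arrays have no read depth, so their number limits the precision.

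All 10 enzymes are named. Of each other list, up to 4 tested genes per tissue with the smallest p could be named. So could the 4 named genes outside the 10 enzymes most like Dgat2 in each tissue. The members and lists were chosen with earlier results of these data known. Of 157 list entries, 145 matched a symbol. Alternatives covered the dim filter, array weights, a trended robust fit, joint quantile normalization, median centring, the mean of probe sets, 1 fit over both tissues, a replicate block, single libraries left out, and, chosen after seeing the data, libraries with transcripts of other organs left out and a hepatocyte covariate.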

Additional observations from a re-analysis of the deposited data

Results flagged for a closer look

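In 4 of 40 gene and group combinations, 1 library stood apart from the other 3 of its group, where chance gives about 1 in 20, or 2. Lpin1 was at 18.47 in Liver F1 3, above 17.53 to 17.65 in the other F1 livers. Lpin2 was at 14.98 in Liver CT 1, below 15.69 to 15.80 in the other CT livers. In eWAT F1 4, Lpin2 was at 9.93, above 9.10 to 9.20 in the other F1 libraries, and Mogat1 was at 9.12, below 10.24 to 10.45. eWAT F1 4 also had the highest hepatocyte marker median of the eWAT libraries (16.14). Without eWAT F1 4 the Lpin2 difference in eWAT was 0.07.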

How the results depend on the processing

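No enzyme was called in any alternative: 19 in liver (lowest adjusted p 0.195), 20 in eWAT (0.218) and 28 for the interaction (0.118). Over all genes, the count called ranged from 6 to 74 in liver (23 as reported), 0 to 25 in eWAT (0 as reported) and 5 to 35 for the interaction (10 as reported). The highest counts came from the trended robust fit in liver and for the interaction, and from 1 fit over both tissues in eWAT, and the cause was not tested. The enzymes with a higher mean in F1 numbered 2 to 5 in liver and 7 to 10 in eWAT.

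The liver median over the 10 enzymes (-0.11) was 0.0012 without Liver F1 1 and 2, and -0.19 to -0.0033 with single libraries left out. The interaction median (-0.49) was -0.61 to -0.345 with single libraries left out, its nearest to 0 without Liver CT 2. The eWAT median was 0.33 to 0.48 with single libraries left out. Members brighter in liver numbered 4 as deposited and 3 under both other scales.

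Signs turned for enzymes whose difference over all libraries lay between -0.21 (Lpin2, interaction) and 0.26 (Lpin2, eWAT). In liver without F1 1 and 2, Dgat1 was 0.005, Dgat2 0.115 and Gpat3 -0.0025. In eWAT, Dgat2 was -0.0204 with array weights, -0.09 with joint quantile normalization and -0.0288 with median centring, and Gpam was -0.0148 with joint normalization. Without eWAT F1 1 and CT 4, Agpat2 was -0.27, Dgat2 -0.1067 and Gpam -0.02. Lpin2 was -0.125 without eWAT CT 1 and 2 and -0.066 with the covariate. For the interaction, Lpin1 was -0.0146 with joint normalization, Dgat2 0.10 without Liver F1 1 and 2, and Lpin2 0.175 without eWAT CT 1 and 2. With single libraries left out, the ranges that crossed 0 were in liver Gpat3 -0.025 to 0.2083, Lpin2 -0.145 to 0.1283, Dgat1 -0.215 to 0.0417, and in eWAT Dgat2 -0.1158 to 0.1208, Agpat2 -0.0767 to 0.31, Gpam -0.0275 to 0.1625, and for the interaction Lpin1 -0.1575 to 0.4358, Dgat2 -0.2358 to 0.0008.

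The labels number the libraries of every group from 1 to 4. Deviations from the group means of same-numbered F1 and CT libraries correlated at -0.053 to 0.060 in liver and -0.35 to 0.26 in eWAT, and 1 of 8 libraries in each tissue correlated best with its own number, so the numbers were not taken as pairs. Between liver and eWAT, same-numbered libraries correlated at 0.012 to 0.047, and 8 of 8 F1 and 4 of 8 CT libraries correlated best with their own number, a hint from the data and not from the labels. With a replicate block, 0 enzymes were called in liver, eWAT and the interaction, and 6, 0 and 6 genes over all.

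With 4 libraries a group, intervals were wide, for Lpin1 in liver -0.23 to 1.35. Dgat2 in eWAT lay close to the highest value of the scale.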
